A study of Apera spica-venti with 7 samples.

Results

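The emerged seedling and the mature leaf of Apera spica-venti, loose silky bentgrass, were compared by the genes that could be assembled from each. The seedling library, named seed BBCH 09, was made from 0.7 g of whole germinated seeds at stage 9 of the BBCH scale of plant growth, when the coleoptile, the sheath around the first leaf, reaches the surface. The leaf library was made from 0.5 g of leaf of greenhouse plants at stages 34 to 36, while the stem lengthened. Both came from 1 mixed stock of 6 herbicide-susceptible Danish populations, the germinated seeds were grown in petri dishes in a climate cabinet, and each library pooled RNA of at least 3 individuals. There was 1 library per condition, so no difference has a replicate check, no test was made, and growth stage cannot be told apart from organ, dish, cabinet or library.

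The members of the comparison were the translated transcripts whose best plant homologue had an e-value (the number of matches that good expected by chance) of at most 0.1 and did not come from 9 species codes of green algae. These were 40398 transcripts of 47423 in seed BBCH 09 and 28376 of 32001 in leaf, together 68774 of the 250476 that the same rule kept in all 7 single assemblies of the series. They are called annotated transcripts, and every share below is a percent of them. The number of transcripts of a gene family says how many translated sequences were listed for it. It does not say how strongly the family was expressed, because the authors evened out read depth and merged like sequences before counting. In whole tissues, fewer cells of a type and less RNA per cell cannot be told apart. Shares have 95% Wilson intervals, and the ratio of the seedling's share to the leaf's, with 0.5 added to both counts, has an exact 95% interval; both cover counting error only and treat transcripts as independent, although several are often parts of 1 gene.

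A seedling that has just emerged lives on what is left of the seed's reserves while cells of root and coleoptile expand, which needs enzymes that loosen and rebuild the wall, new wax and cutin at the surface, and peroxidases that act on wall polymers. A mature grass leaf no longer grows along most of its length and fixes carbon with the photosystems of its chloroplasts, large complexes that hold chlorophyll on light-harvesting proteins. Blue light is sensed there by phototropins and red light by phytochromes.

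The 2 assemblies were annotated to similar degrees. At least 1 Gene Ontology (GO) name, a term for a process, function or cell component, stood on 74.9% of the seedling's annotated transcripts and on 76.6% of the leaf's. An enzyme code stood on 13.7% and 14.8%. An informative description, one that names a protein, stood on 23.5% and 23.3%. The median translated length was 190 amino acids in seed BBCH 09 and 194 in leaf, and the median similarity to the homologue was 85% and 87%. Each annotated transcript carried on average 3.05 GO names in leaf and 2.88 in seed BBCH 09. The median ratio over the 976 GO names compared was 0.857 and that over the 205 enzyme codes 0.859, while that over the 246 descriptions was 1.03.

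The emerged seedling held a larger share of transcripts for peroxidases, cell wall growth, wax and cutin, and herbicide metabolism, and a smaller share for the light reactions of photosynthesis. Of 30 functional lists, 4 had an exact interval above 1 (13.3%) and 1 an interval below 1 (3.33%). Peroxidases, listed here as class III because their descriptions say no more than peroxidase, stood on 213 transcripts of seed BBCH 09 (0.527%, 0.461 to 0.603) and 69 of leaf (0.243%, 0.192 to 0.308), a ratio of 2.16 (1.65 to 2.89). Wax and cutin proteins stood on 68 and 27 transcripts (ratio 1.75, 1.12 to 2.88), cell wall growth proteins on 186 and 95 (1.37, 1.07 to 1.78), and herbicide metabolism and targets on 544 and 284 (1.34, 1.16 to 1.56). Proteins of the light reactions stood on 45 transcripts of seed BBCH 09 (0.111%, 0.0833 to 0.149) and 60 of leaf (0.211%, 0.164 to 0.272), a ratio of 0.528 (0.350 to 0.789).

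**Figure D1:**
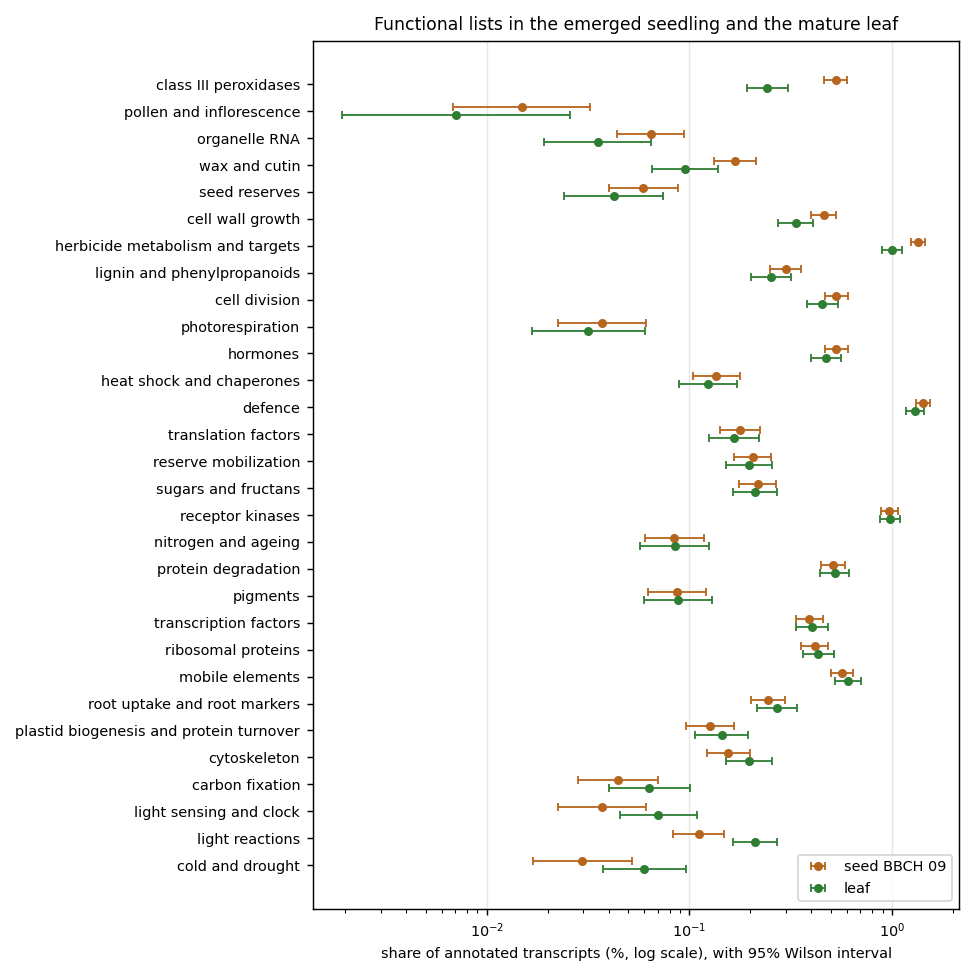
Share of annotated transcripts (percent, log scale) of each of the 30 functional lists in seed BBCH 09 (brown) and leaf (green), ordered by the ratio of the shares, with 95% Wilson intervals as bars. Peroxidases lie at 0.527% and 0.243% with bars that do not meet, while the bars of most other lists overlap.

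Light-harvesting proteins, which bind the chlorophyll that feeds both photosystems, made up the largest part of the difference in the light reactions. They stood on 19 transcripts of seed BBCH 09 and 28 of leaf (ratio 0.481, 0.252 to 0.884), the only member of any list on at least 10 transcripts whose interval lay below 1 (1 of 92 such members, 1.09%). Their homologous proteins were 4 found only in seed BBCH 09, 3 only in leaf and 3 in both. Those are 40%, 30% and 30%, beside 40.0%, 19.0% and 40.9% over all proteins of the pair. In raw counts the leaf thus had more transcripts of light-harvesting proteins but did not match more such homologues. Its assembly also matched fewer proteins of all kinds, 21683 against 29284 in seed BBCH 09. Subunits of photosystem I stood on 4 and 8 transcripts, subunits of photosystem II on 7 and 10, and ferredoxin, which takes electrons from photosystem I, on 4 and 7. Each of these was lower in the seedling, but with so few transcripts their intervals reached past 1 (for photosystem I 0.0774 to 1.31). Subunits of the plastid NDH complex, which cycles electrons around photosystem I, stood on 7 and 6. Oxygen-evolving enhancer proteins, which steady the water-splitting site of photosystem II, ran the other way, with 3 transcripts in seed BBCH 09 and 0 in leaf. The interval of the leaf's share reached 0.0135%, above the seedling's 0.00743%. Neither assembly had a transcript described as plastocyanin.

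The leaf stood apart in the light reactions from all the other assemblies and not from the seedling alone. The share was 0.211% in leaf and between 0.110% and 0.123% in seed BBCH 05, 07 and 08, root and stem, with seed BBCH 09 at 0.111%. Transcripts of light-harvesting proteins were therefore also assembled from root, 17 of them, as well as from every germination stage, so their presence alone did not mark green tissue. Counted as distinct homologous proteins the difference was smaller: 27 proteins were found in each assembly, of which 19 were shared, the ratio of shares of proteins was 0.740, and no list kept an interval below 1.

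**Figure D2:**
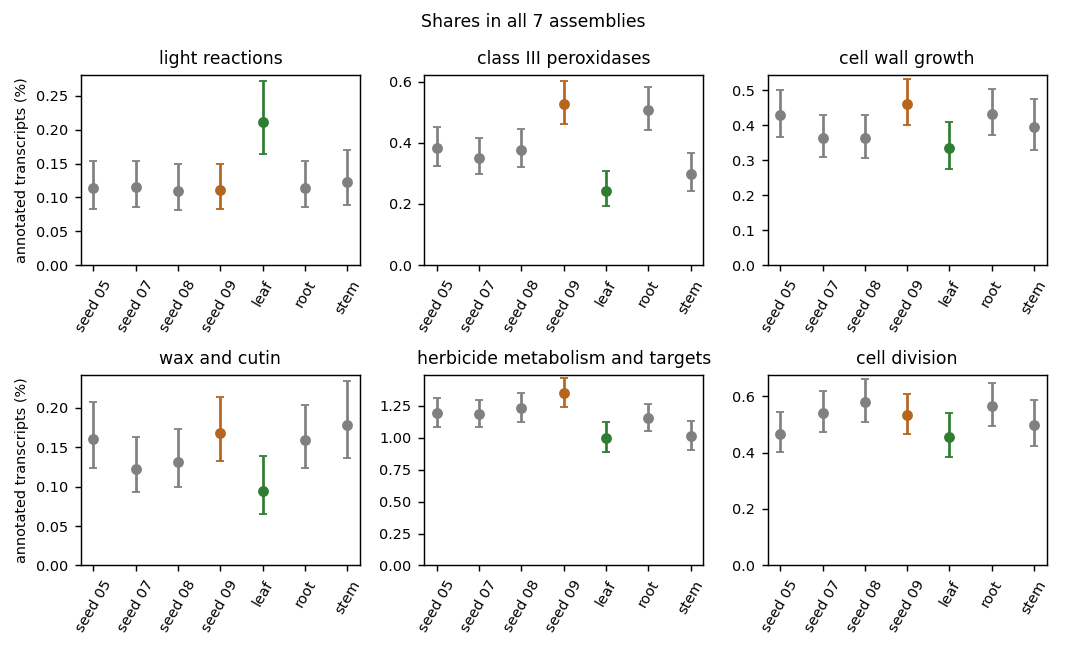
Share of annotated transcripts (percent, axes from 0) of 6 functional lists in the 7 single assemblies, 1 library each, with 95% Wilson intervals; seed BBCH 09 is brown, leaf green and the other 5 assemblies grey. The leaf has the highest share of light reactions and the lowest of the 4 lists that were higher in seed BBCH 09.

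GO names were compared in the same way as the lists. Of the 976 GO names on at least 20 transcripts, 28 were at least 2-fold higher in leaf (2.87%) and 10 at least 2-fold higher in seed BBCH 09 (1.02%); divided by the median ratio the counts were 7 and 30, so the split between the directions depends on whether the ratios are centred. The exact interval lay above 1 for 36 names (3.69%) and below 1 for 90 (9.22%). Photosystem I stood on 25 transcripts of seed BBCH 09 and 45 of leaf (ratio 0.394, 0.229 to 0.650), chlorophyll binding on 43 and 66 (0.459, 0.304 to 0.682), and protein-chromophore linkage, the fixing of pigments to their proteins, on 44 and 71 (0.437, 0.292 to 0.643). These 3 names lie on the same chlorophyll a-b binding proteins to a large part, which gave 15 of the seedling's 44 and 27 of the leaf's 71 transcripts in the last. Names for the chloroplast as a whole differed less, with chloroplast on 399 and 389 transcripts (0.720, 0.625 to 0.831) and photosynthesis on 83 and 90 (0.648, 0.475 to 0.883).

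Several GO names of light perception had ratios below 1. Blue light photoreceptor activity stood on 6 transcripts of seed BBCH 09 and 15 of leaf (ratio 0.295, 0.0893 to 0.766), the blue light signaling pathway on 8 and 17, and phototropism, bending towards light, on 7 and 16 (0.319, 0.107 to 0.790). Response to red light stood on 29 and 44, response to far red light on 32 and 48, and circadian rhythm, the daily clock, on 14 and 21. By description, phototropin had 0 transcripts in seed BBCH 09 and 4 in leaf, and phytochrome 5 and 9 (0.407, 0.103 to 1.30). Phototropin transcripts were also assembled in seed BBCH 07 (3), root (1) and stem (1). The whole list of light sensing and clock proteins stood on 15 and 20 transcripts, with a ratio of 0.531 (0.251 to 1.08), and as distinct proteins its ratio turned to 1.18.

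The largest GO ratio towards the leaf was that of guanosine tetraphosphate metabolism, with 7 transcripts in seed BBCH 09 and 19 in leaf (ratio 0.270, 0.0919 to 0.643). Guanosine tetraphosphate is an alarmone, first known from bacteria, that plants make in their chloroplasts. The leaf's 19 transcripts came from 13 Trinity genes and matched 9 proteins, the seedling's 7 matched 7, and 5 proteins were shared. The matching enzyme code, EC:2.7.6.5 for the synthetase, stood on 2 and 9 transcripts (0.185, 0.0164 to 0.754). Both assemblies matched the same 2 proteins with this code. The seedling's 2 transcripts came from 2 Trinity genes and the leaf's 9 from 6, and no interval was made by gene. The other names among the 12 most leaf-sided were positive regulation of organelle organization (7 and 13), lateral root formation (10 and 17), signal recognition particle (9 and 15), RNA methyltransferase activity (16 and 25) and oxidoreductase activity on sulfur groups with disulfide as acceptor (9 and 14). The rest of the 28 were of many kinds, among them unidimensional cell growth (20 and 30), protein N-linked glycosylation (30 and 43), production of siRNA (23 and 33), vacuole organization (22 and 32), vesicle docking in exocytosis (15 and 22), ATP-dependent peptidase activity (12 and 18), adenylate kinase activity (8 and 12) and inositol hexakisphosphate biosynthesis (19 and 27).

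**Figure D3:**
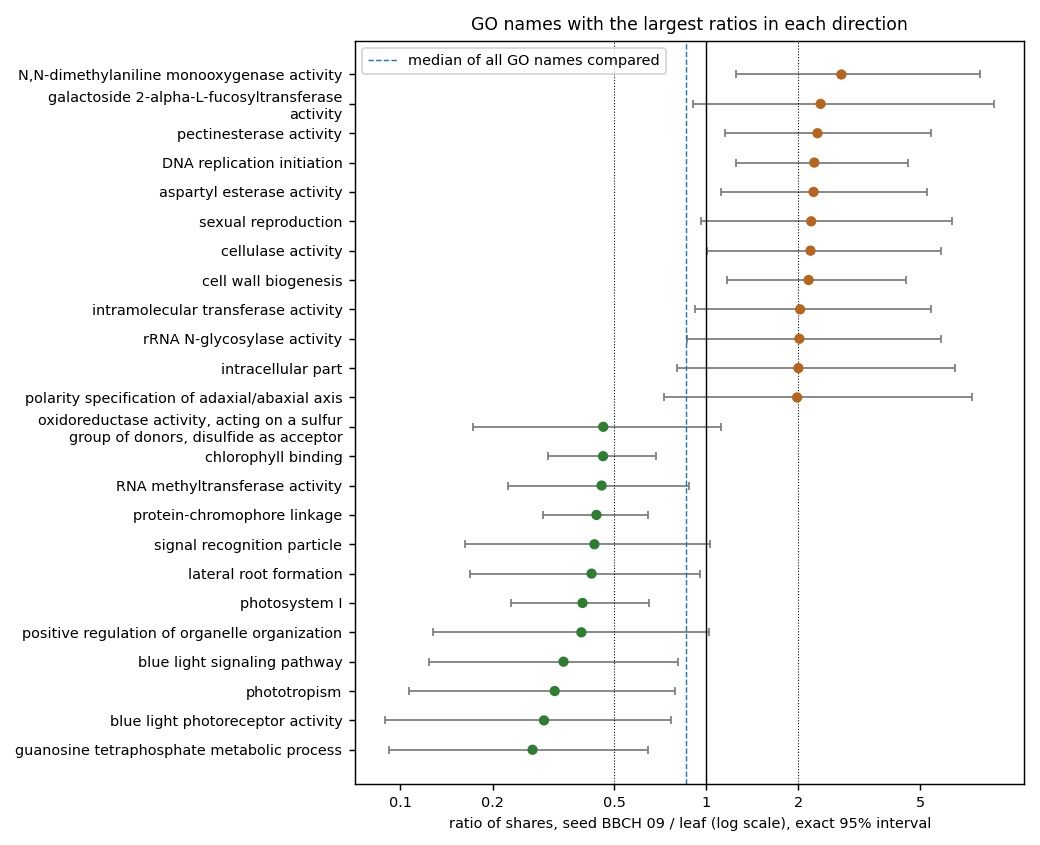
Ratio of the share in seed BBCH 09 to the share in leaf (log scale) for the 12 GO names with the largest ratios in each direction, with exact 95% intervals; dotted lines mark a 2-fold ratio and the dashed line the median of all 976 names, 0.857. Guanosine tetraphosphate metabolism lies lowest at 0.270 and N,N-dimethylaniline monooxygenase activity highest at 2.76.

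Within the list of cell wall growth, expansins and pectin methylesterases were the 2 families whose interval lay above 1, and none lay below it. Expansins, which loosen the wall without cutting its polymers, stood on 14 transcripts of seed BBCH 09 and 2 of leaf (ratio 4.07, 1.13 to 44.6). Arabinogalactan and fasciclin proteins, glycoproteins of the cell surface, stood on 9 and 1 (4.45, 0.876 to 277). Pectin methylesterases, which strip methyl groups from pectin, stood on 33 and 11 transcripts (2.05, 1.04 to 4.62). Endoglucanases stood on 31 and 11 (1.92, 0.968 to 4.37), xyloglucan endotransglucosylases, which cut and rejoin xyloglucan, on 34 and 17 (1.39, 0.763 to 2.68), and beta-galactosidases on 24 and 11 (1.50, 0.723 to 3.47). Cellulose synthases did not follow, with 27 transcripts in seed BBCH 09 and 30 in leaf (0.633, 0.362 to 1.10). Polygalacturonases, which cut pectin, stood on 1 and 4 (0.234, 0.00357 to 1.78), pectate lyases, which also do, on 4 and 3 (0.903, 0.158 to 6.39), and cellulose synthase-like proteins, which make other wall sugars, on 9 and 5 (1.21, 0.381 to 4.80). The families that remodel the wall thus lay on both sides of 1.

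**Figure D4:**
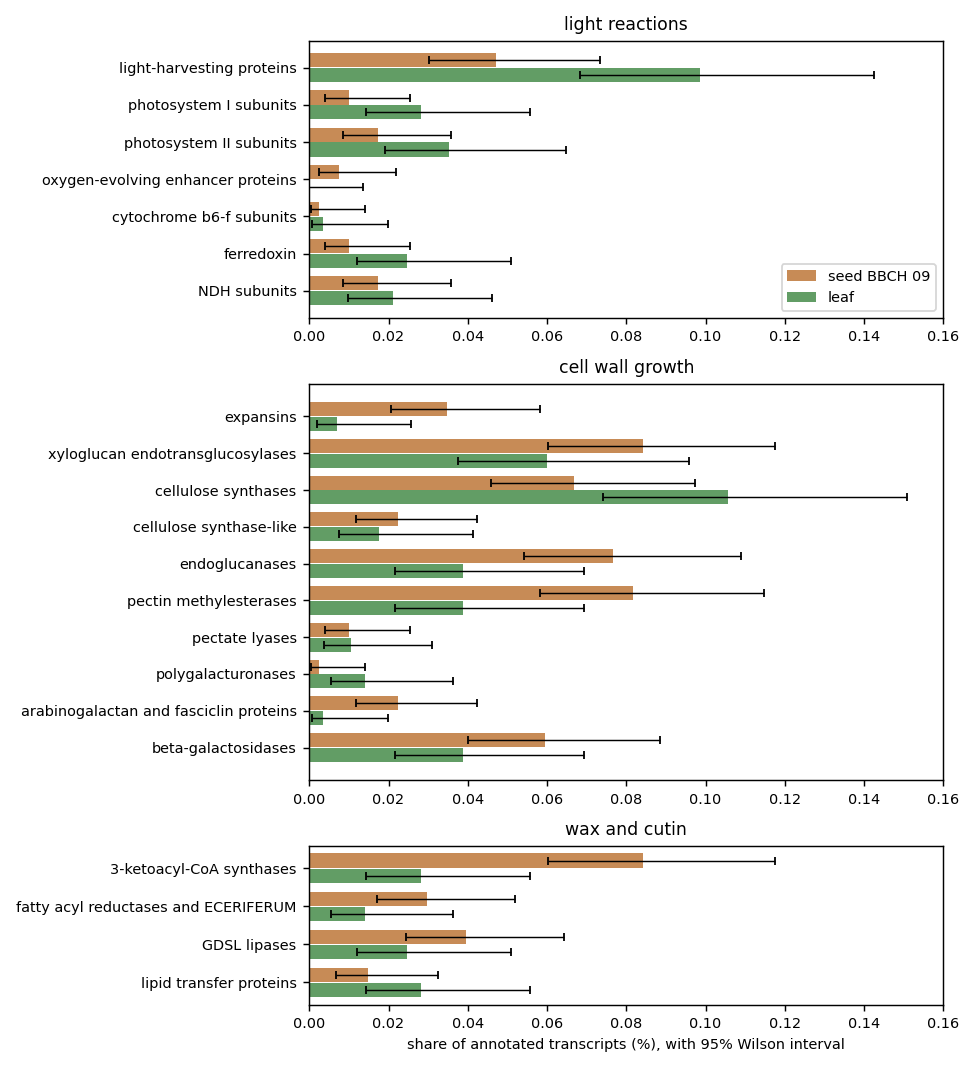
Share of annotated transcripts (percent) of the members of 3 lists, light reactions, cell wall growth and wax and cutin, in seed BBCH 09 (brown) and leaf (green), with 95% Wilson intervals. Expansins, endoglucanases, pectin methylesterases and 3-ketoacyl-CoA synthases reach further in seed BBCH 09, light-harvesting proteins and cellulose synthases in leaf.

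Among the 10 GO names at least 2-fold higher in seed BBCH 09, several stood on wall enzymes, some on the same transcripts. Pectinesterase activity stood on 34 and 10 transcripts (ratio 2.31, 1.15 to 5.42), cellulase activity on 26 and 8 (2.19, 1.00 to 5.83) and cell wall biogenesis on 41 and 13 (2.16, 1.16 to 4.51). The last was carried by xyloglucan endotransglucosylases and by galactoside 2-alpha-L-fucosyltransferase, which puts fucose on xyloglucan and whose own GO name stood on 18 and 5 (2.36, 0.905 to 8.71). Sexual reproduction, on 23 and 7 transcripts (2.20, 0.959 to 6.37), had beta-expansins, the family of the grass pollen allergens, as most of its described carriers. Aspartyl esterase activity (33 and 10) covers the pectinesterases again. Plant-type secondary cell wall biogenesis ran the other way, on 13 and 19 (0.486, 0.218 to 1.03). The remaining names among the 12 most seedling-sided were intramolecular transferase activity, mostly on terpene cyclases (24 and 8, ratio 2.02, 0.916 to 5.43), rRNA N-glycosylase activity, that of ribosome-inactivating proteins (21 and 7), intracellular part (18 and 6) and polarity specification of adaxial/abaxial axis, the upper and lower face of a leaf (15 and 5).

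Expansins were also unevenly spread over the other assemblies, with 9, 10 and 3 transcripts in seed BBCH 05, 07 and 08, 11 in root and 4 in stem, so the seedling's 14 were the most and the leaf's 2 the fewest. Of 10 homologous expansins 8 were found only in seed BBCH 09, 1 only in leaf and 1 in both, where over all proteins of the pair 40.0% were found only in seed BBCH 09, 19.0% only in leaf and 40.9% in both. Over the whole cell wall list the leaf had the lowest share of all 7 assemblies and seed BBCH 09 the highest, 0.335% and 0.460%, with the other 5 between 0.362% and 0.432%.

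In wax and cutin the largest family was that of 3-ketoacyl-CoA synthases, which extend fatty acids to the chain lengths of waxes. They stood on 34 transcripts of seed BBCH 09 and 8 of leaf (ratio 2.85, 1.36 to 7.47), and on 21 to 34 in each of the other assemblies. The leaf was thus the low one, at 0.0282% against 0.0551% to 0.106% in those 5 and 0.0842% in the seedling. Fatty acyl reductases and ECERIFERUM proteins, which make wax alcohols and alkanes, stood on 12 and 4 transcripts (1.95, 0.639 to 8.96) and GDSL lipases, some of which build cutin, on 16 and 7 (1.55, 0.625 to 4.61). Lipid transfer proteins, thought to carry these lipids through the wall, stood on 6 and 8 and did not share the direction.

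Of all list members, peroxidases had the widest difference in share. Their transcripts numbered 138, 140 and 144 in seed BBCH 05, 07 and 08, 195 in root and 87 in stem, beside 213 in seed BBCH 09 and 69 in leaf. As shares, seed BBCH 09 (0.527%) and root (0.508%) were the highest, with intervals that overlap, then seed BBCH 05, 08 and 07 (0.382%, 0.378% and 0.351%), stem (0.298%) and leaf (0.243%). The seedling library held the young root along with the shoot, and how much of its peroxidase share came from root was not tested. Of 154 homologous peroxidases in the pair, 106 were found only in seed BBCH 09, 13 only in leaf and 35 in both (68.8%, 8.44% and 22.7%), beside 40.0%, 19.0% and 40.9% over all proteins of the pair. The GO names rest on the same homologue search as the descriptions, so they are no separate check. Peroxidase activity stood on 234 and 95 transcripts (1.73, 1.36 to 2.22) and hydrogen peroxide catabolic process on 166 and 69 (1.68, 1.27 to 2.27). Heme binding, a property of peroxidases and P450s alike, stood on 700 and 324 (1.52, 1.33 to 1.74).

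Lignin and phenylpropanoid enzymes, which make the substrates of wall peroxidases, differed less. The list stood on 121 transcripts of seed BBCH 09 and 72 of leaf (ratio 1.18), with an interval that included 1. Phenylalanine ammonia-lyase, the first enzyme of the pathway, stood on 19 and 14 (0.945, 0.453 to 2.06), laccases, which also couple lignin units, on 16 and 10, and flavonoid enzymes on 65 and 32 (1.42, 0.921 to 2.25). Cinnamyl-alcohol dehydrogenase, the last step to lignin alcohols, stood on 7 and 10. 4-coumarate-CoA ligase, an early step, had 5 transcripts and 0, with an interval that reached down to 0.644.

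Herbicide metabolism was the largest of the lists that were higher in the seedling, and the intervals of 2 of its families lay above 1. Glycosyltransferases, which attach sugars to hormones, phenolics and herbicides, stood on 294 transcripts of seed BBCH 09 (0.728%) and 158 of leaf (0.557%), a ratio of 1.31 (1.07 to 1.60). Cytochrome P450s, which oxidize such compounds first, stood on 128 and 60 (1.49, 1.09 to 2.07); these counts include NADPH-cytochrome P450 reductase, their electron donor, with 1 transcript in the seedling and 5 in leaf. ABC transporters, which move conjugates into the vacuole, stood on 102 and 57 (1.25, 0.900 to 1.77) and glutathione S-transferases on 15 and 5 (1.98, 0.728 to 7.41). The leaf's share of P450s, 0.211%, was close to that of stem (0.213%) and seed BBCH 05 (0.216%), and the seedling's 0.317% was the highest, followed by seed BBCH 08 at 0.249%.

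Single names within these families differed more. CYP89A2, a P450, stood on 12 transcripts of seed BBCH 09 and 2 of leaf (ratio 3.51, 0.938 to 38.8). ABC transporter C family member 10 stood on 28 and 5 (3.64, 1.50 to 13.1) and member 14 on 9 and 1 (4.45, 0.876 to 277). Flavin-containing monooxygenases, another class of oxidizing enzymes, had the largest GO ratio towards the seedling, N,N-dimethylaniline monooxygenase activity, with 29 and 7 transcripts (2.76, 1.25 to 7.87). That name stood on 17 to 30 transcripts elsewhere, as 0.0583% to 0.0830% of them, and the leaf's 0.0247% was the lowest of all 7.

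The enzymes that the herbicides named in the study's design block were too few to rank. The enzyme code of acetolactate synthase, EC:2.2.1.6, which makes branched-chain amino acids, stood on 11 transcripts of seed BBCH 09 and 3 of leaf (ratio 2.31, 0.680 to 14.4). That of acetyl-CoA carboxylase, EC:6.4.1.2, the first step of fatty acid synthesis, stood on 5 and 8 (0.455, 0.113 to 1.52). Both intervals include 1.

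Enzyme codes were compared likewise. Of 205 codes on at least 10 transcripts, 8 were at least 2-fold higher in seed BBCH 09 (3.90%) and 17 in leaf (8.29%), or 14 and 6 when divided by the median ratio. The exact interval lay above 1 for 4 codes (1.95%), those of DNA cytosine methyltransferase, the flavin monooxygenases, the pectinesterases and the peroxidases (EC:1.11.1.7, 214 and 90, ratio 1.67, 1.30 to 2.16). It lay below 1 for 2 codes (0.976%), the synthetase of guanosine tetraphosphate and DNA-directed RNA polymerase, which transcribes genes (EC:2.7.7.6, 64 and 73, ratio 0.616, 0.433 to 0.873). Among 205 codes, 95% intervals can leave this many off 1 from counting error alone. Transcripts with the code of the synthetase matched the same 2 proteins in both assemblies. They came from 2 Trinity genes in seed BBCH 09 and 6 in leaf, so the interval counts several transcripts of 1 gene as independent. Beside the codes of the flavin monooxygenases (29 and 7), pectinesterases (34 and 10), cellulases (25 and 8) and acetolactate synthase, the seedling side held catalase, which breaks down hydrogen peroxide (EC:1.11.1.6, 12 and 3, ratio 2.51, 0.758 to 15.5), a DNA glycosylase that removes methylated adenine (EC:3.2.2.21, 8 and 2), and primary-amine oxidase (EC:1.4.3.21, 10 and 3). The leaf side held aspartate kinase, which opens the path to lysine and threonine (EC:2.7.2.4, 3 and 8, ratio 0.289, 0.0450 to 1.10), and the entry enzyme of the shikimate pathway (EC:2.5.1.54, 4 and 7). Alpha-mannosidase of glycoprotein trimming (EC:3.2.1.113) and ATP-dependent DNA ligase (EC:6.5.1.1) each stood on 5 and 9, an incomplete oxidoreductase code (EC:1.4) on 3 and 7, and an inositol phosphate kinase (EC:2.7.1.134) on 7 and 11. Except for the synthetase of guanosine tetraphosphate, the intervals of the codes in this paragraph that were at least 2-fold higher in leaf included 1.

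DNA cytosine methyltransferases were not found by name in the leaf assembly. These enzymes copy or set the methyl marks on cytosine that silence transposons and some genes, and the copying kind works behind the replication fork. Cytosine-specific methyltransferase was the description of 13 transcripts of seed BBCH 09 from 12 Trinity genes, and of 0 in leaf. With the leaf set at a floor of 3 transcripts (0.0106%), the seedling's share of 0.0322% was 3.04-fold higher. The exact interval of the ratio began lower, at 2.14. All the other assemblies had it, with 8 transcripts in each of seed BBCH 05, 07 and 08, 14 in root and 12 in stem. The enzyme code, EC:2.1.1.37, and the GO name C-5 methylation of cytosine each stood on 11 transcripts of the seedling and 0 of leaf. Maintenance of DNA methylation stood on 8 and 2. The broader GO name DNA methylation, which covers all proteins that take part, stood on 86 and 62.

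Proteins of DNA replication and cell division lay on both sides of 1. DNA replication initiation stood on 46 transcripts of seed BBCH 09 and 14 of leaf (ratio 2.25, 1.25 to 4.55), and DNA helicase by description on 14 and 2 (4.07, 1.13 to 44.6). The A and B cyclins, which drive entry into mitosis, stood on 9 and 1 (4.45, 0.876 to 277), cyclin-dependent kinases on 12 and 4, and condensin and cohesin, which fold and hold chromosomes, on 14 and 5 (1.85, 0.669 to 6.98). Kinesins, motor proteins, stood on 117 and 69 (1.19, 0.877 to 1.63), histones on 30 and 22 (0.952, 0.534 to 1.74) and DNA polymerases on 22 and 18 (0.854, 0.440 to 1.70). Replication factors stood on 6 and 7 (0.609, 0.167 to 2.09), the enzyme code of DNA polymerase, EC:2.7.7.7, on 42 and 39 (0.756), and the GO name regulation of cell cycle process on 15 and 22 (0.484, 0.231 to 0.966). The list of 11 families stood on 215 and 129 transcripts, 0.532% and 0.455%, and its interval included 1. The leaf again had the lowest share of the 7 assemblies.

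Of the 246 informative descriptions on at least 10 transcripts, 31 were at least 2-fold higher in seed BBCH 09 (12.6%) and 12 in leaf (4.88%); the interval lay above 1 for 18 (7.32%) and below 1 for 4 (1.63%). Behind the methyltransferase the largest ratio was that of coatomer subunit beta-2, part of the coat of vesicles that leave the Golgi, with 21 and 1 transcripts (10.1, 2.37 to 610). Next came lysosomal beta glucosidase (13 and 1), ankyrin-3 (13 and 1), a taxol-type N-benzoyltransferase (12 and 1), cyclopropane-fatty-acyl-phospholipid synthase, delta-cadinene synthase (10 and 1 each), and ATP synthase subunit beta (9 and 1). Terpene synthases and acyltransferases of this kind have many copies in grasses and these names were taken over from the nearest annotated homologue, so they name a family more than a function. Towards the leaf the 4 intervals below 1 were those of an FLS2-type receptor kinase, a chlorophyll a-b binding protein and cysteine-rich receptor kinase 25, and that of DNA-directed RNA polymerase (31 and 41, ratio 0.533).

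Receptor kinases differed by subfamily and not in sum. The list stood on 393 transcripts of seed BBCH 09 and 278 of leaf, 0.973% and 0.980% (ratio 0.992, 0.849 to 1.16). Leucine-rich repeat kinases described as FLS2, the receptor of bacterial flagellin in Arabidopsis, stood on 2 and 13 (0.130, 0.0118 to 0.477), the largest ratio of a description towards the leaf. Cysteine-rich receptor kinases, a large family of surface receptors, split: number 25 stood on 10 and 17 (0.421, 0.169 to 0.956) and number 36 on 7 and 12, while number 10 stood on 33 and 7 (3.14, 1.44 to 8.87) and number 26 on 16 and 3 (3.31, 1.07 to 20.1). The leaf's share of the FLS2 name, 0.0458%, was followed by that of root at 0.0391%, and the seedling's 0.00495% was the lowest.

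Other descriptions on the leaf side were chlorophyll a-b binding protein, chloroplastic (15 and 27, ratio 0.396, 0.193 to 0.760), fructan exohydrolase, which releases fructose from the storage fructans of grasses, and polyubiquitin (4 and 7 each), alpha-1,2-mannosidase (6 and 10), the MYB factor APL, known for phloem identity in Arabidopsis (8 and 12), cinnamyl alcohol dehydrogenase 5, non-specific lipid-transfer protein and poly(A) polymerase (4 and 6 each), and phosphoinositide phospholipase C (9 and 13). Apart from the chlorophyll-binding protein, their intervals included 1.

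By description, proteins of the seed's reserves were few in both assemblies. The GO name nutrient reservoir activity stood on 39 transcripts of seed BBCH 09 and 15 of leaf, with globulins among its described carriers in both. Oleosin and caleosin, proteins of the oil bodies in which seeds store fat, had 3 transcripts each in seed BBCH 09 and 0 in leaf; they also had 2 each in root and 0 in stem. Prolamins and glutelins, storage proteins of the grain, had 1 and 0, as had puroindoline and amylase inhibitors, and 1-Cys peroxiredoxin. The other members of the list were found in both. Globulins and cupins stood on 6 and 4 (ratio 1.015), dehydrins on 5 and 3 (1.10) and serpins on 3 and 2 (0.983). Late embryogenesis abundant proteins lay on the leaf side, with 1 and 3 (0.301, 0.00446 to 2.92). The list of seed reserves stood on 24 and 12 transcripts (0.0594% and 0.0423%), and was highest in seed BBCH 05 at 0.0885%. Reserve mobilization stood on 83 and 56 (0.206% and 0.197%), and the intervals of both lists included 1. Members of reserve mobilization lay on both sides of 1. Alpha-amylase, which digests starch, stood on 10 and 5 (1.34), cysteine proteases on 28 and 17 (1.14), and serine carboxypeptidases on 12 and 7 (1.17). Phosphoenolpyruvate carboxykinase, 1 step on the way from fat to sugar, stood on 4 and 0, and the glyoxylate cycle on 3 and 1. Beta-amylase stood on 8 and 6 (0.9185), aspartic proteases on 10 and 10 (0.702), and fatty acid beta-oxidation on 5 and 4. Alpha-glucosidase stood on 2 and 2, and debranching enzymes on 1 and 4 (0.234).

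The other lists had intervals that included 1. Ribosomal proteins stood on 168 transcripts of seed BBCH 09 and 123 of leaf (0.416% and 0.434%), transcription factors on 158 and 114 (0.391% and 0.402%), defence proteins on 575 and 370 (1.42% and 1.30%), protein degradation on 208 and 148, and mobile elements on 229 and 172. Hormone proteins stood on 215 and 134; within them jasmonate proteins, mostly lipoxygenases, stood on 38 and 14 (1.86, 1.01 to 3.81), while auxin proteins stood on 113 and 75 (1.06, 0.783 to 1.44). Pentatricopeptide repeat proteins, which edit and splice RNA in plastids and mitochondria, stood on 26 and 10 (1.77, 0.852 to 4.24). Cold and drought proteins stood on 12 and 17 (0.502), among them inhibitors of ice recrystallization (6 and 10). In the list of root uptake, aquaporins, which are water channels, stood on 6 and 12 (0.365, 0.108 to 1.01). In that of the cytoskeleton, tubulin stood on 16 and 22 (0.515, 0.251 to 1.02). Markers of root did not go together. CASP and CASP-like proteins stood on 28 and 18, nicotianamine and phytosiderophore proteins on 9 and 5, and nitrate transporters on 3 and 3. Neither assembly had a root cap protein. Peroxidases, also taken as a marker of root, stood on 213 and 69 (2.16, 1.65 to 2.89). The list of root uptake, which leaves peroxidases out, stood on 99 and 77. Within it ammonium transporters stood on 8 and 2 (2.39), while the aquaporins above lay on the leaf side. Homeobox factors, many of which shape growing points, stood on 14 and 4 (2.26, 0.772 to 10.3). Pollen allergens stood on 6 and 2. Translation factors stood on 72 and 47, heat shock proteins and chaperones on 55 and 35, plastid biogenesis and turnover on 51 and 41, sugars and fructans on 88 and 60, nitrogen and ageing on 34 and 24, the cytoskeleton on 63 and 56 and photorespiration on 15 and 9, with ratios between 0.789 and 1.15.

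Among members of lists on at least 10 transcripts, 8 of 92 were at least 2-fold higher in seed BBCH 09 and 8 in leaf (8.70% each way), and 7 had an interval above 1 (7.61%): expansins, pectin methylesterases, peroxidases, jasmonate proteins, P450s, glycosyltransferases and 3-ketoacyl-CoA synthases. Where a GO name was at least 2-fold higher in leaf, the leaf was the highest of the 7 assemblies in 27 of 28 and seed BBCH 09 the lowest in 15. Where it was at least 2-fold higher in seed BBCH 09, the leaf was the lowest in 7 of 10 and the seedling the highest in 5. Of the 31 descriptions on the seedling side, the leaf was the lowest for 24 and the seedling the highest for 16. These names were picked by the values of this pair, which by itself places both near the ends.

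Proteins were also told apart by their homologue in UniProt. The annotated transcripts of seed BBCH 09 matched 29284 different proteins and those of leaf 21683, of which 14801 were shared, 50.5% of the seedling's and 68.3% of the leaf's. Only in seed BBCH 09 were 14483 proteins (49.5% of its own), and only in leaf 6882 (31.7%). Since the leaf assembly was smaller, absence from it says less than absence from the seedling. Of the proteins only in seed BBCH 09, 77.3% were found in at least 1 of the other 5 assemblies, 69.6% in another germination stage and 53.0% in root or stem. Of those only in leaf, 67.6% were found in another assembly, 51.2% in a germination stage and 48.8% in root or stem. Of the shared proteins, 98.3% were found elsewhere.

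**Figure D5:**
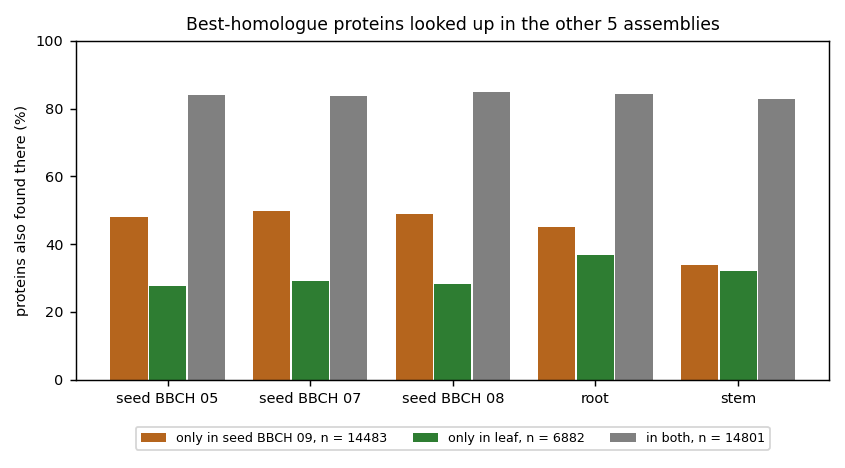
Percent of the proteins found only in seed BBCH 09 (brown, 14483), only in leaf (green, 6882) and in both (grey, 14801) that were also assembled in each of the other 5 libraries. Proteins found only in seed BBCH 09 recur most in the other germination stages (48.0% to 49.7%), those found only in leaf most in root (36.7%).

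Of the 3179 named proteins found in seed BBCH 09 and not in leaf, the 12 with the most transcripts were each found in all 5 other assemblies, while of all proteins found only there, named or not, 22.7% were found nowhere else. They were coatomer subunit beta-2 (13 transcripts), ankyrin-3 and a cysteine-rich receptor kinase 10 (12 each), DNA topoisomerase 6 subunit A, which unknots DNA during repeated rounds of replication (8), a peroxidase, a cytosine-specific methyltransferase, cysteine-rich receptor kinase 39 and a fructosyltransferase, which builds fructans (7 each), and a glycosyltransferase, CYP89A2, the resistance protein RPP13 and a condensin-2 subunit (6 each). The seedling's 13 coatomer transcripts came from 12 Trinity genes, were 99 to 574 amino acids long and matched with a similarity of 56% to 71%, below the median of 85% of that assembly.

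Of the 1513 named proteins found in leaf and not in seed BBCH 09, the 12 with the most transcripts had 3 to 5 each and were found in 0 to 4 of the other 5 assemblies. Phosphatidylinositol 4-kinase, which makes a membrane signal lipid, had 5 transcripts and was found in 2 others. A calcium-dependent kinase, a protein described as sperm-associated antigen 6, phototropin-1, the resistance protein RGA3 and a non-specific lipid-transfer protein had 4 each. An ERECTA-like receptor kinase, from a family that shapes organs in Arabidopsis, a Mov34 family protein, glucose-6-phosphate dehydrogenase, which supplies reducing power, 2 serine/threonine kinases and an MLO protein, from the family of the barley mildew susceptibility gene, had 3 each. Sperm-associated antigen 6, at a similarity of 90% to 97%, and 1 of the 2 kinases were found in no other assembly. For phototropin-1 the 4 transcripts came from 3 Trinity genes, and the protein recurred in 3 assemblies with 1 transcript each.

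Over all 36166 proteins of the pair, 40.0% were found only in seed BBCH 09, 19.0% only in leaf and 40.9% in both. By list, proteins found only in seed BBCH 09 were 106 of 154 peroxidases, 36 of 56 for wax and cutin, and 80 of 141 for the wall, against 13, 8 and 14 found only in leaf. In the light reactions the counts were 8 only in the seedling, 8 only in leaf and 19 in both, and in carbon fixation 6, 9 and 7. The small subunit of rubisco, the enzyme that fixes carbon dioxide, stood on 1 transcript in seed BBCH 09 and 4 in leaf, its activase on 3 and 1. Protochlorophyllide reductase, which makes chlorophyll in light, stood on 5 and 1. The list of carbon fixation stood on 18 transcripts in each (0.0446% and 0.0634%) and that of pigments on 35 and 25 (0.0866% and 0.0881%), neither with an interval off 1. Of the 18 for carbon fixation, 6 in seed BBCH 09 and 7 in leaf were phosphoglycerate kinase, which is not limited to that pathway. With peptides of at least 150 amino acids only, the ratio of carbon fixation fell from 0.702 to 0.345.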

How the data were processed

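Reads of the 7 libraries had been trimmed by the authors (Trimmomatic, version not given in the sources used here) and digitally normalized by k-mers. Trinity contigs of each library were reduced to 1 isoform per gene, clustered by sequence, and translated by the authors before the blastp search of UniProtKB plant proteins and the assignment of GO names and enzyme codes with Blast2GO. The annotated transcripts still outnumbered their Trinity genes, 40398 from 37821 genes in seed BBCH 09 and 28376 from 25761 in leaf. The reason was not tested. The e-value is a score and mean similarity a percent, both used as deposited, and peptide length is in amino acids, as deposited. The seed BBCH 09 and leaf tables were compared, and the other 5 used to look values up; 0 columns lacked a sample. Values of the combined assembly were not used here. No sequences were analysed here.

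Transcripts with an e-value of at most 0.1 and no green-algal species code were counted. GO names on at least 20, and enzyme codes and informative descriptions on at least 10 transcripts of the pair entered. A 2-fold ratio of shares was called, with 0.5 added to both counts. Ratio intervals are exact (Clopper-Pearson, 95%), conditional on the total count. For a count of 0, a ratio against a floor of 3 transcripts per library was also taken, which is not a limit on the share. Named were all lists with their most abundant and most uneven members, the 12 GO names, 12 descriptions and 8 enzyme codes with the largest ratios each way, and the 12 commonest proteins of only 1 assembly. Other GO names and members in the text were chosen after their values were seen. The 169 members and 30 lists were chosen with earlier results of these data known, and their search patterns were fitted to the deposited descriptions. The counting was tested on simulated data. Software was pandas 2.3.3, SciPy 1.17.1 and NumPy 2.4.6 under Python 3.11.15, with matplotlib 3.10.9 for plots.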

Additional observations from a re-analysis of the deposited data

Results flagged for a closer look

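The green-algal transcripts left out of the comparison were a signal in data that it does not use. They were 504 transcripts, 1.23% (1.13 to 1.34) of those with a homologue in seed BBCH 09, and 36 in leaf, 0.127% (0.0915 to 0.175). Of the 295 algal transcripts of seed BBCH 09 with an informative description, 40 were described as ribosomal proteins, and of the 16 of leaf 0 were. Among the other assemblies root had 400 (1.03%) and the remaining 4 between 51 and 119.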

How the results depend on the processing

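With 1 library per condition and counts mostly under 50, only large differences in share could be resolved. No paired analysis was possible because each condition has 1 library and no test was made. Of 94 single ratios under the alternatives, 734 of 745 values stayed inside the interval of the reported ratio, 11 left it and 0 that were off 1 reversed. This is a weak check, because intervals of small counts are wide and the alternatives mostly reuse the same transcripts. A reversal was scored only where the reported interval excluded 1. The turn of light sensing and clock with distinct proteins was therefore not scored as a reversal. GO names at least 2-fold higher in leaf fell from 28 to 18 with peptides of at least 150 amino acids and to 3 with distinct proteins. Enzyme codes on the seedling side were 5 in place of 8 under either of these, and those on the leaf side 7 and 1 in place of 17, or 10 when only transcripts with a code were the denominator. Descriptions were 10 and 5 (long peptides) and 5 and 4 (distinct proteins) in place of 31 and 12; both settings leave fewer names with enough transcripts. Centred on the median ratio, an alternative chosen after seeing the data, the GO counts were 30 for the seedling and 7 for leaf, and the enzyme code counts 14 and 6. Lists with an interval below 1 were 2 at an e-value limit of 1e-10 and with 1 transcript per Trinity gene, 3 with long peptides and 0 with distinct proteins, while 4 lists lay above 1 in each of these. Told apart by description, 1196 proteins were only in seed BBCH 09 and 632 only in leaf; with at least 2 transcripts required the counts were 2449 and 745. With long peptides the ratios of carbon fixation, cell division and ribosomal proteins were 0.345, 1.52 and 0.687, outside their reported intervals; the cause was not tested.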
